A study of Mus musculus with 10 samples.

Results

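Tristetraprolin (TTP), the product of *Zfp36*, is set between active and inactive states by the p38-MK2 kinase cascade, and 9 genes of this circuit were followed in mouse skin. They were *Zfp36*, the p38 kinase genes *Mapk14* and *Mapk11*, the p38-activated kinase genes *Mapkapk2* and *Mapkapk3*, the p38-activating kinase genes *Map2k3* and *Map2k6*, and the phosphatase genes *Dusp1* and *Dusp10*. They were taken by symbol from a table of 24452 named genes, and all 9 were among the 15543 genes with enough counts to be tested. RNA came from full-thickness back skin that had been treated but held no tumor, from 5 wild-type (WT) and 5 *Zfp36*ΔARE (TTP delta ARE) C57BL/6 mice, with 1 library per mouse. *Zfp36*ΔARE animals carry a germline knockin that removes the AU-rich element (ARE) of the endogenous *Zfp36* 3′-UTR, so every cell type carries it, and whether they were homozygous is not given in the sources used here. Controls were littermates. Both groups were 7 weeks old at the start and received a single dose of 400 nmol of the mutagen DMBA on shaved skin, followed by 10 nmol of the tumor-promoting phorbol ester TPA, 2 applications a week for 20 weeks, each in 0.2 ml acetone. There was no untreated skin, so the comparison is of genotypes within treated skin.

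TTP is an RNA-binding protein that recognizes AU-rich elements in the 3′-UTRs of inflammatory and growth-related mRNAs and recruits deadenylases that shorten their poly(A) tails, which leads to decay. Stress, cytokines and phorbol esters activate the MAP2K enzymes, which phosphorylate p38, and p38 in turn phosphorylates MK2, the product of *Mapkapk2*. MK2 phosphorylates TTP, which then binds 14-3-3 proteins and is less able to promote decay, until the phosphatase PP2A removes the phosphates. *Dusp1* and *Dusp10* encode phosphatases that switch p38 off. The mRNAs of *Zfp36* and *Dusp1* hold AU-rich elements themselves and are known targets of TTP. RNA counts measure the mRNA of these genes and not the phosphorylation that carries the signal.

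The AU-rich stretches are printed here because the knockin acts on the one in *Zfp36* and because the same letters occur in some of the other 8 mRNAs. Sequences are from the GENCODE M21 transcripts on GRCm38 (mm10), read 5′ to 3′ on the strand of the gene, with ATTTA, the core of the element, in capitals. Position 1 of a 3′-UTR is the first base after the stop codon. The ATTTA copies of *Zfp36* lie at chr7:28376958-28376987 and chr7:28376926-28376955 on the minus strand, which are positions 571 to 600 and 603 to 632.
Zfp36, first stretch: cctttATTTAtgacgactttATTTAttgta
Zfp36, second stretch: aagattttatagtATTTAtatatattgggt
The *Dusp1* stretches lie on the minus strand at chr17:26506157-26506186, chr17:26505870-26505899 and chr17:26505674-26505703.
Dusp1, first stretch: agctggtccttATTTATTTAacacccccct
Dusp1, second stretch: agtttttacctttATTTAtttttgtgtagg
Dusp1, last stretch: tgtatgtttgtttATTTAtgatctgaagta
*Dusp10* holds an overlapping pair at chr1:184075516-184075545 on the plus strand, and *Mapk14* a single copy at chr17:28747855-28747884 on the plus strand, shown for contrast.
Dusp10: aaaaaacaaaaATTTATTTAaaaaatattt
Mapk14: tataaggacccatATTTAagctttgtgtgc
Which of these bases the knockin removed was not analysed here.

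Counted on the gene strand in the longest annotated 3′-UTR, overlaps included, ATTTA occurred 3 times in *Zfp36* (774 bases), 4 times in *Dusp1* (690 bases), 3 times in *Dusp10* (1113 bases) and 2 times in *Map2k6* (918 bases). *Mapk14* and *Mapkapk2* held 1 each, and *Mapk11*, *Mapkapk3* and *Map2k3* held 0. The longer form TATTTAT was found in *Zfp36* and *Dusp1*, with 3 copies each, and in none of the other 7 in these UTRs. For comparison, the other 3′-UTRs at least as long as that of a gene were cut to their first bases at its length. Of those cut to the length of *Zfp36*, 18.1% held TATTTAT, and of those cut to the length of *Dusp1*, 16.4% did. The far ends of these longer UTRs were thus not counted. At least 4 copies of ATTTA, the number in *Dusp1*, were present in 7.75% of UTRs cut to that length. The share with at least as many copies was 19.4% for *Zfp36*, 32.8% for *Dusp10* and 44.0% for *Map2k6*, each at its own length. A match to these letters is a description of the mRNA, and binding was not measured.

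The libraries held between 19595024 and 36419553 counts in named genes, and a normalized count here is a count scaled by edgeR's TMM factors to the mean effective library size. The 9 genes had between 142 and 7715 raw counts per library, the lowest in *Map2k6*. Summed counts of 14 macrophage markers were 27516 to 54407 in WT and 12022 to 18632 in *Zfp36*ΔARE skin. Markers are counted here as lower or higher at an adjusted p below 0.05 in edgeR's test. Over all tested genes 19.1% passed as lower and 15.3% as higher. Of the 14 macrophage markers 13 passed as lower. Of 15 skeletal muscle markers 13 passed as lower, and of 10 adipocyte markers 8 did. Summed hair shaft markers (11 genes) ranged from 3044 to 115672 in WT, with WT replicates 3 and 1 at the bottom with 3044 and 19559, and from 190287 to 497434 in *Zfp36*ΔARE skin, where 2 of the 11 passed edgeR's test and all 11 passed DESeq2. Of the basal keratinocyte markers 4 of 9 passed as lower, and of the T cell markers 1 of 8 did. No marker of these lists was at 0 in any library, so transcripts of keratinocytes, hair, fat, muscle and immune cells were present in all of them. *Zfp36*ΔARE replicates 2 to 5 had 3349 to 4262 counts of Y-linked genes and the other 6 libraries at most 1, and for most of this comparison the effects of genotype and sex cannot be told apart. The part of cell makeup and sex in the results below was not tested, and in whole tissue fewer cells of a type and less RNA per cell cannot be told apart. With WT replicates 1 and 3 left out, 1 of the 15 muscle markers passed as lower (list median -0.85 against -1.48). All 11 hair shaft markers passed as higher (1.61 against 2.28), and 12 macrophage and 8 adipocyte markers still passed as lower. Of all genes 6.87% passed as higher and 9.06% as lower in that fit. For the 9 genes, values without these replicates are given where they change a call.

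In edgeR's quasi-likelihood test, adjusted by Benjamini-Hochberg over all tested genes, 6 of the 9 genes differed between the genotypes at an adjusted p below 0.05. *Zfp36*, *Map2k3*, *Mapkapk3*, *Mapk11* and *Dusp10* were higher in *Zfp36*ΔARE skin, *Dusp1* was lower, and *Mapk14*, *Mapkapk2* and *Map2k6* did not pass. Over all tested genes 34.3% passed, 15.3% higher and 19.1% lower, so a gene that passed was common in these data and the 5 of 9 that were higher stand against that background. With a fold change over 2 as well, *Zfp36* was the single gene of the 9, where 8.31% of all genes passed (1.67% higher and 6.64% lower). The 5 libraries of one genotype did not overlap with the 5 of the other in *Zfp36*, *Map2k3*, *Mapkapk3* and *Mapk11*, all higher in the knockin, where 23.1% of all genes were set apart in this way, 11.2% higher and 11.9% lower. *Zfp36* had the largest change of the 9, at 2.52-fold, and the other changes that passed were between 1.17-fold and 1.68-fold. Without WT replicates 1 and 3, *Zfp36* and *Map2k3* passed and the other 4 did not, and the share of all genes that passed fell to 6.87% higher and 9.06% lower. Among the 6 libraries without Y-linked counts, a comparison of 5 WT mice with *Zfp36*ΔARE replicate 1 alone, edgeR called 0 of 16373 genes (2572 had an unadjusted p below 0.05, and the smallest adjusted value was 0.188), so none of the 9 passed there. The log2 fold changes kept their directions, with *Map2k3* at 0.41, *Mapkapk3* at 0.24, *Mapk11* at 0.23, *Dusp1* at -1.001 and *Dusp10* at 0.69, the last over 1.5 times its value in all libraries. In that fit the single knockin library is assumed to vary like the WT ones.

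**Figure D1:**
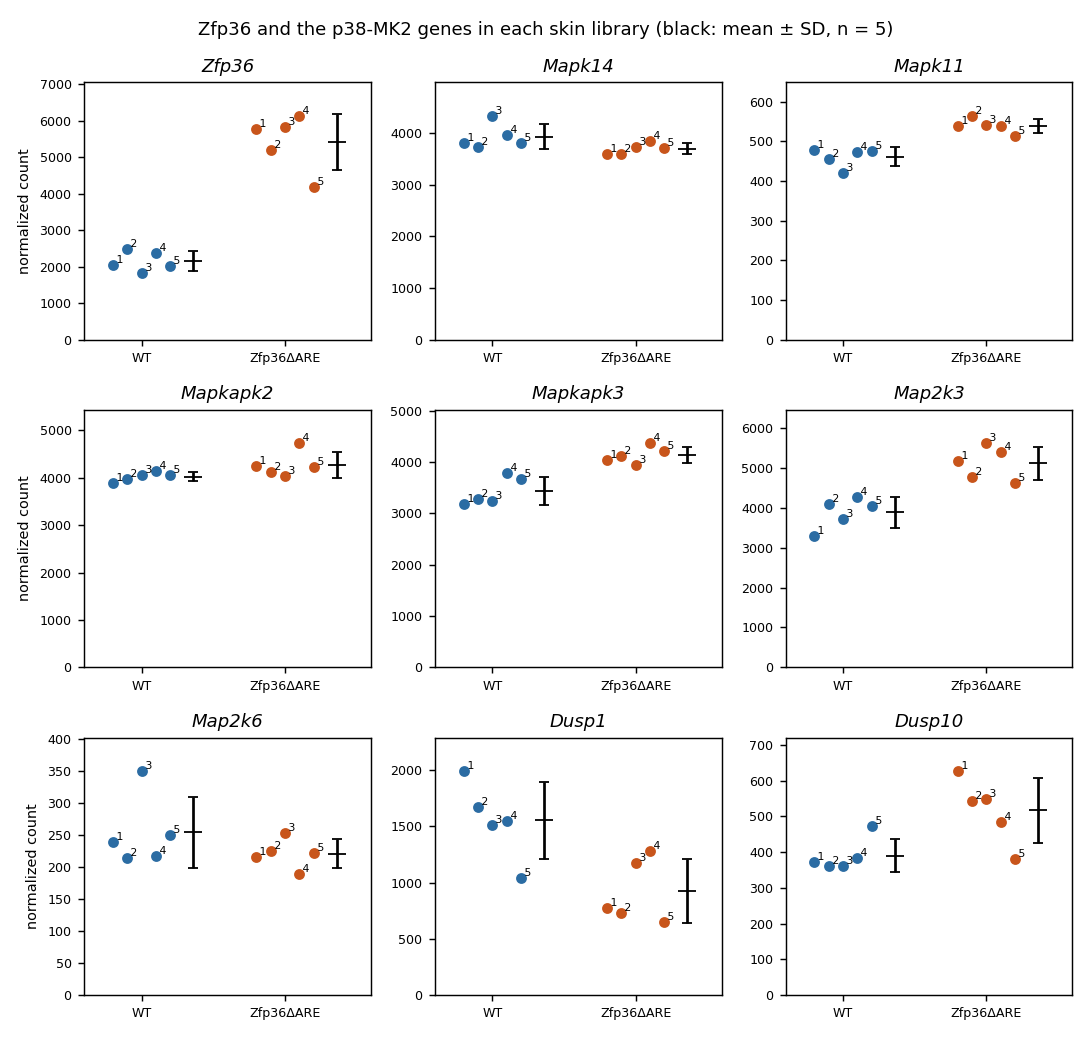
Normalized counts of each of the 9 genes in every library, with WT in blue and *Zfp36*ΔARE in orange, the replicate number beside each point, and the mean ± SD of 5 mice in black; each vertical axis starts at 0. *Zfp36* stood well apart between the genotypes (1824 to 2496 against 4196 to 6134), *Map2k3*, *Mapkapk3* and *Mapk11* were apart by a narrow gap, and *Dusp1* was lower with overlap.

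*Zfp36* (Entrez 22695, chromosome 7, 28376784 to 28380253, minus strand) had 2051, 2496, 1824, 2377 and 2011 normalized counts in WT replicates 1 to 5. In *Zfp36*ΔARE replicates 1 to 5 it had 5781, 5202, 5820, 6134 and 4196. The lowest knockin library thus lay well above the highest WT library, and replicate 1, the knockin mouse without Y-linked counts, lay inside the range of the other 4. The means were 2152 ± 277 and 5427 ± 766 (SD, n = 5 each), a 2.52-fold difference, and the log2 fold change was 1.33 (standard error 0.12, 95% interval 1.07 to 1.596, adjusted p = 0.00195 with edgeR's quasi-likelihood test). The relative spread between mice was alike in the 2 groups, with a coefficient of variation of 12.9% in WT and 14.1% in *Zfp36*ΔARE. Leaving out each library in turn gave 1.28 to 1.41, and the call held each time. Without WT replicates 1 and 3 the value was 1.24, and among the libraries without Y-linked counts it was 1.43 (adjusted p = 0.282 with edgeR). The mRNA carries the deletion and is counted over its exons, so a knockin transcript offers fewer bases to count, which is not corrected for here. *Zfp36* exons overlap those of *Gm44710* on the opposite strand, and 4.21% of the 50-base stretches of its transcripts also occur in transcripts of other genes, none of them in this group.

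The kinases that phosphorylate p38 did not move together. *Map2k3* (Entrez 26397, chromosome 11, 60932033 to 60952811, plus strand), whose product MKK3 activates p38, was higher in the knockin. Its normalized counts were 3296, 4108, 3714, 4287 and 4058 in WT and 5170, 4788, 5621, 5419 and 4627 in *Zfp36*ΔARE replicates 1 to 5. All knockin libraries were above all WT libraries, although the gap between 4287 and 4627 was small beside the spread within each group. The means were 3893 ± 393 and 5125 ± 417 (SD, n = 5 each), 1.32-fold, with a log2 fold change of 0.40 (standard error 0.085, 95% interval 0.21 to 0.58, adjusted p = 0.00949 with edgeR). The call held with each library left out in turn (0.34 to 0.43).

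*Map2k6* (Entrez 26399, chromosome 11, 110399122 to 110525522, plus strand) encodes MKK6, the closest relative of MKK3 and also a p38 activator. It had 239, 214, 350, 217 and 251 normalized counts in WT and 215, 225, 254, 190 and 222 in *Zfp36*ΔARE replicates 1 to 5. Apart from WT replicate 3, the library that also had the most muscle marker counts, the WT libraries lay within the knockin range. *Zfp36*ΔARE replicate 4, with 190, was below every WT library. The log2 fold change was -0.20 (standard error 0.15, 95% interval -0.52 to 0.12, adjusted p = 0.302 with edgeR), and without WT replicate 3 it was -0.06. The interval leaves room for a decrease larger, in absolute value, than the change of *Map2k3*.

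The p38 genes also differed from each other. *Mapk14* (Entrez 26416, chromosome 17, 28691329 to 28748406, plus strand) encodes p38α, the main isoform upstream of MK2. Its normalized counts were 3816, 3743, 4338, 3964 and 3811 in WT and 3595, 3598, 3736, 3860 and 3715 in *Zfp36*ΔARE replicates 1 to 5. Of the knockin libraries 4 lay just below the lowest WT library and replicate 4 lay inside the WT range, so the groups overlapped. The log2 fold change was -0.09 (standard error 0.055, 95% interval -0.21 to 0.03, adjusted p = 0.228 with edgeR).

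*Mapk11* (Entrez 19094, chromosome 15, 89142486 to 89149628, minus strand) encodes p38β, which shares many substrates with p38α. It had 477, 456, 421, 474 and 476 normalized counts in WT and 539, 564, 540, 538 and 514 in *Zfp36*ΔARE replicates 1 to 5. All 5 knockin values were above the WT values, and the spread was small in both groups. Means of 461 ± 23.7 and 539 ± 17.6 (SD, n = 5 each) gave a 1.17-fold difference and a log2 fold change of 0.23 (standard error 0.061, 95% interval 0.09 to 0.36, adjusted p = 0.020 with edgeR). The call was lost without *Zfp36*ΔARE replicate 2 (adjusted p = 0.0514 with edgeR) and without WT replicates 1 and 3 together (0.20, adjusted p = 0.0662).

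*Mapkapk2* and *Mapkapk3*, the kinases that act on TTP, had a similar level per library. *Mapkapk2* (Entrez 17164, chromosome 1, 131053700 to 131097826, minus strand) had 3896, 3972, 4066, 4134 and 4068 normalized counts in WT and 4241, 4116, 4030, 4724 and 4238 in *Zfp36*ΔARE replicates 1 to 5. The groups overlapped, and *Zfp36*ΔARE replicate 4 was the highest. The log2 fold change of 0.08 (standard error 0.056, 95% interval -0.04 to 0.21) did not pass (adjusted p = 0.251 with edgeR).

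*Mapkapk3* (Entrez 102626, chromosome 9, 107254927 to 107289877, minus strand) encodes MK3, a kinase that shares substrates with MK2. It had 3181, 3289, 3246, 3791 and 3673 normalized counts in WT and 4051, 4128, 3935, 4363 and 4218 in *Zfp36*ΔARE replicates 1 to 5. WT replicates 4 and 5 came closest to the knockin libraries, which were all higher. Means of 3436 ± 276 and 4139 ± 163 (SD, n = 5 each) gave a 1.20-fold difference, a log2 fold change of 0.27 (standard error 0.064, 95% interval 0.13 to 0.41, adjusted p = 0.0135 with edgeR). The call held with each library left out in turn (0.24 to 0.31) and was lost without WT replicates 1 and 3 together (0.21, adjusted p = 0.0655).

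The p38 phosphatase genes moved in opposite directions. *Dusp1* (Entrez 19252, chromosome 17, 26505590 to 26562128, minus strand) encodes MKP-1, an immediate early gene product that inactivates p38 and JNK. Its normalized counts were 1993, 1677, 1509, 1547 and 1042 in WT and 775, 733, 1177, 1282 and 653 in *Zfp36*ΔARE replicates 1 to 5. The overlap came from WT replicate 5, which lay below *Zfp36*ΔARE replicates 3 and 4, while the other 4 WT libraries were above every knockin library. Means of 1554 ± 343 and 924 ± 285 (SD, n = 5 each) gave a 1.68-fold lower level in the knockin, a log2 fold change of -0.75 (standard error 0.22, 95% interval -1.23 to -0.27, adjusted p = 0.0256 with edgeR). *Dusp1* thus had the largest change after *Zfp36* and the largest spread between mice in the knockin, with a coefficient of variation of 30.8%. With each library left out the value stayed between -0.90 and -0.65, and the call was lost without WT replicate 1 (adjusted p = 0.0629 with edgeR), *Zfp36*ΔARE replicate 1 (0.0559) or *Zfp36*ΔARE replicate 2 (0.0625). Without WT replicates 1 and 3 together it was -0.62 (adjusted p = 0.122 with edgeR). *Zfp36*ΔARE replicate 1, which had no Y-linked counts, lay within the range of the other 4 knockin mice. Of the knockin mice it had the highest value of *Dusp10* (627) and the lowest of *Mapk14* (3595). It lay within the range of the others in *Map2k3*, *Map2k6*, *Mapk11*, *Mapkapk2* and *Mapkapk3*. *Dusp1* exons overlap those of *Ergic1* on the opposite strand, and the strand setting of the counting is not stated in the sources used here.

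*Dusp10* (Entrez 63953, chromosome 1, 184013302 to 184075636, plus strand) encodes MKP-5, a phosphatase of p38 and JNK. It had 372, 362, 361, 383 and 473 normalized counts in WT and 627, 543, 549, 485 and 380 in *Zfp36*ΔARE replicates 1 to 5. WT replicate 5 was apart from the other WT mice and *Zfp36*ΔARE replicate 5 fell within the WT range. Means of 390 ± 46.9 and 517 ± 91.8 (SD, n = 5 each) gave a log2 fold change of 0.41 (standard error 0.13, 95% interval 0.12 to 0.70, adjusted p = 0.0371 with edgeR). This was the least stable of the 6 calls, since it was kept in 2 of the 10 fits that left out 1 library, those without WT replicate 5 or without *Zfp36*ΔARE replicate 5, with values from 0.32 to 0.49. The adjusted p reached 0.0862 with edgeR in the other 8, and without WT replicates 1 and 3 together it was 0.159 at a log2 fold change of 0.35. *Zfp36*ΔARE replicate 5, the library with the fewest counts, had the lowest value of the knockin mice in *Zfp36*, *Mapk11*, *Map2k3*, *Dusp1* and *Dusp10*.

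**Figure D2:**
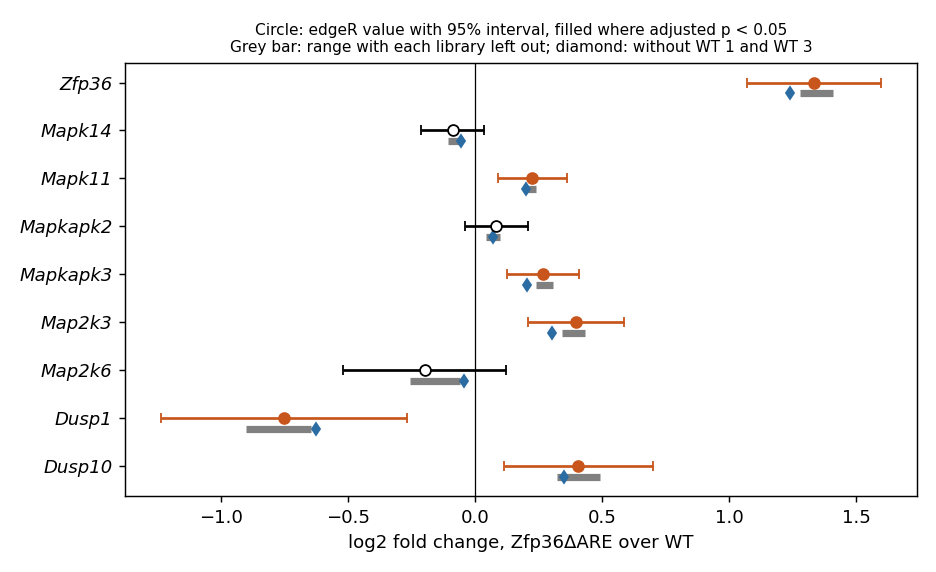
Log2 fold change of each gene (horizontal axis, *Zfp36*ΔARE over WT) as a circle with its 95% interval, filled where the adjusted p was below 0.05, with the range over leave-one-out fits as a grey bar and the value without WT replicates 1 and 3 as a diamond. Every value kept its direction in these fits, and *Zfp36* at 1.33 lay beyond the intervals of all the others.

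Within each pair of related genes the log2 ratio of the counts within a library was tested, because such a ratio does not depend on scaling between libraries. The ratios rest on the same counts as the calls above. How often ratios of other gene pairs differed was not computed. The ratios were not tested among the libraries without Y-linked counts. The test for each of the 4 pairs was an exact permutation test, two-sided and adjusted over the 4, for which 5 mice against 5 allow a smallest p of 0.00794. The *Mapk14* to *Mapk11* ratio was 7.998 to 10.3 in WT and 6.38 to 7.22 in *Zfp36*ΔARE libraries, without overlap, and the log2 ratio fell by 0.31 (3.09 ± 0.15 against 2.78 ± 0.075, SD, n = 5 each, exact permutation test, adjusted p = 0.0106). The *Mapkapk2* to *Mapkapk3* ratio was 1.09 to 1.25 and 0.997 to 1.08, and its log2 value fell by 0.19 (exact permutation test, adjusted p = 0.0106). In both pairs the balance moved toward the gene that was higher in the knockin, *Mapk11* and *Mapkapk3*, as the fold changes given above imply. *Mapk14* had more counts than *Mapk11* in every library. Another p38 gene, *Mapk13*, had higher mean normalized counts than *Mapk14* in WT (4527 against 3934) and in *Zfp36*ΔARE skin (5609 against 3701).

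The *Map2k3* to *Map2k6* ratio was 10.6 to 19.7 in WT and 20.9 to 28.6 in *Zfp36*ΔARE, a log2 difference of 0.58 (exact permutation test, adjusted p = 0.0106). It was lowest in WT replicate 3, with 10.6. The *Dusp1* to *Dusp10* ratio was 5.36, 4.63, 4.18, 4.04 and 2.21 in WT replicates 1 to 5 and 1.24, 1.35, 2.14, 2.64 and 1.72 in *Zfp36*ΔARE. The lowest, 1.24, was in *Zfp36*ΔARE replicate 1, the knockin mouse without Y-linked counts, which lay within the knockin range in the other pairs. This pair had the largest shift, from a geometric mean of 3.92 to 1.75, a log2 difference of -1.17 (exact permutation test, p and adjusted p = 0.0159), with *Zfp36*ΔARE replicate 4 above WT replicate 5. Without WT replicates 1 and 3, the first 3 differences were -0.26, -0.14 and 0.34 and passed, and that of *Dusp1* to *Dusp10* was -0.98 (exact permutation test, adjusted p = 0.0536).

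**Figure D3:**
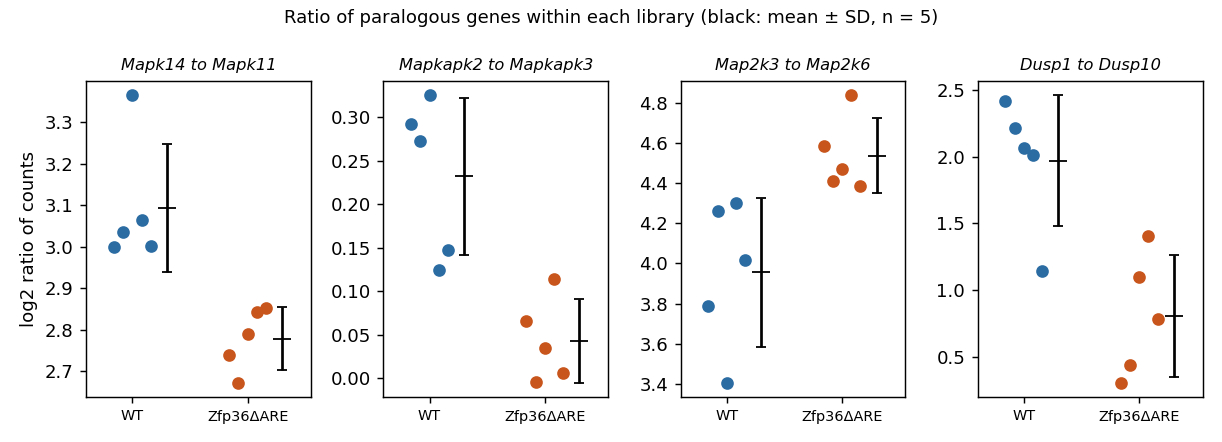
Log2 ratio of the counts of 2 related genes within each library (vertical axis, not starting at 0), WT in blue and *Zfp36*ΔARE in orange, in order of replicate from left to right, with the mean ± SD of 5 mice in black. The groups were apart in the first 3 pairs, and in *Dusp1* to *Dusp10* WT replicate 5 (1.14) lay below *Zfp36*ΔARE replicate 4 (1.40).

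Levels were compared between genes as normalized counts per kilobase of summed exon length. In WT skin *Map2k3* was the highest of the 9 with 1797, followed by *Mapkapk2* with 1403, *Mapkapk3* with 1220, *Zfp36* with 1219, *Mapk14* with 1039 and *Dusp1* with 800, while *Mapk11* (189), *Dusp10* (144) and *Map2k6* (123) were much lower. *Map2k3* (1522 to 1979), *Mapkapk2* (1357 to 1440) and *Mapkapk3* (1130 to 1346) did not overlap with the next in this order, apart from *Mapkapk3*, whose range overlapped that of *Zfp36* (1034 to 1414). Neighbours from *Mapkapk3* down to *Dusp1* overlapped each other, as did the lowest 3. In *Zfp36*ΔARE skin *Zfp36* had the highest mean of the 9 with 3075 per kilobase, ahead of *Map2k3* with 2366, and their ranges overlapped (2377 to 3475 and 2136 to 2595). *Mapkapk2* (1488) and *Mapkapk3* (1470) followed and overlapped, then *Mapk14* (977), *Dusp1* (476), *Mapk11* (221), *Dusp10* (191) and *Map2k6* (107). In that group *Mapk11* and *Dusp10* overlapped, and *Mapk14*, *Dusp1* and *Map2k6* were each apart from their neighbours.

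Beyond the 9, 6 lists of other genes in the circuit were described with the same fit, in which the median log2 fold change of all genes tested was 0.0076. Among 14 upstream kinases and adaptors 3 rose and 1 fell, with a median of 0.06. The ASK kinase genes *Map3k5* (1411 ± 337 to 2324 ± 369 normalized counts, log2 fold change 0.72) and *Map3k6* (0.79) were higher, as was *Map3k7*, which encodes TAK1 (0.19), and the TAO kinase gene *Taok3* was lower (-0.56). *Tab2*, an adaptor of TAK1 and the gene of this list with the most counts, had a log2 fold change of 0.08 and did not pass (adjusted p = 0.297 with edgeR). None of the 3 remaining p38 and MAPKAP kinase genes passed: *Mapk13* (p38δ, abundant in keratinocytes) had a log2 fold change of 0.31, *Mapk12* (p38γ) -0.10 and *Mapkapk5* 0.0034.

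Of 9 other targets of p38 or of its downstream kinases 2 rose and 3 fell, with a median of 0.05. *Mknk1*, a kinase of the translation factor eIF4E (0.65), and *Hspb1*, the small heat shock protein that MK2 phosphorylates (7427 ± 743 to 10822 ± 1816 normalized counts, 0.54), were higher. The transcription factor genes *Mef2c* (-1.16) and *Mef2a* (-0.46) and the kinase gene *Rps6ka5*, encoding MSK1 (-0.42), were lower. *Mef2c* is abundant in muscle and myeloid cells, whose markers were lower as well (given above), and their part in it was not tested.

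Of 9 other MAP kinase phosphatase genes 3 rose and 0 fell, with a median of 0.27, where 15.3% of all genes were higher and 19.1% lower. *Dusp5*, a nuclear phosphatase of ERK, had 415 ± 145 and 736 ± 211 normalized counts (0.83), *Dusp8* had 0.47 and *Dusp16*, encoding MKP-7, had 0.27. *Dusp7*, the gene of this list with the most counts, had 0.10 and did not pass (adjusted p = 0.611 with edgeR). The genes for PP2A and 14-3-3 proteins, which act on phosphorylated TTP, had 4 of 11 higher and 0 lower, with a median of 0.04. Those that rose were the PP2A scaffold gene *Ppp2r1b* (2819 ± 870 to 5435 ± 465 normalized counts, 0.95), the catalytic subunit genes *Ppp2cb* (0.46) and *Ppp2ca* (0.27), and *Ywhae*, a 14-3-3 gene (0.21). *Sfn*, the 14-3-3σ gene of stratified epithelia and the most abundant of the list, had 22834 ± 7382 and 34071 ± 4603 normalized counts (0.58, adjusted p = 0.0619 with edgeR).

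Of 20 immediate early genes, the class to which *Zfp36* and *Dusp1* belong, 3 rose and 1 fell, with a median of 0.22. *Egr3* (0.50), *Fosl2* (0.42) and *Ier5* (0.41) were higher, and *Nr4a1*, an orphan nuclear receptor gene, was lower (-0.84), close in size to *Dusp1*. Over the 6 lists 20 of 66 genes passed (30.3%), 15 higher (22.7%) and 5 lower (7.58%), beside 34.3%, 15.3% and 19.1% of all genes tested. Leaving out WT replicate 1 alone gave 11 genes and leaving out *Zfp36*ΔARE replicate 3 alone gave 12. With WT replicates 1 and 3 both left out it was 10 genes, 7 higher and 3 lower, and none of the phosphatase list was among them. *Map3k5*, *Map3k6*, *Taok3*, *Mknk1*, *Mef2c*, *Mef2a*, *Ppp2r1b*, *Ppp2cb*, *Egr3* and *Fosl2* were those 10. The log2 fold changes of the named genes that no longer passed were 0.11 for *Map3k7*, 0.46 for *Hspb1*, -0.26 for *Rps6ka5*, 0.15 for *Ppp2ca*, 0.25 for *Ier5* and -0.55 for *Nr4a1* (adjusted p from 0.0522 for *Hspb1* to 0.204 for *Ppp2ca* with edgeR). Those of the phosphatase genes were 0.51 for *Dusp5*, 0.32 for *Dusp8* and 0.17 for *Dusp16* (adjusted p = 0.169, 0.117 and 0.0677 with edgeR). *Ywhae* no longer passed either, and its value in that fit is not reported here.

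**Figure D4:**
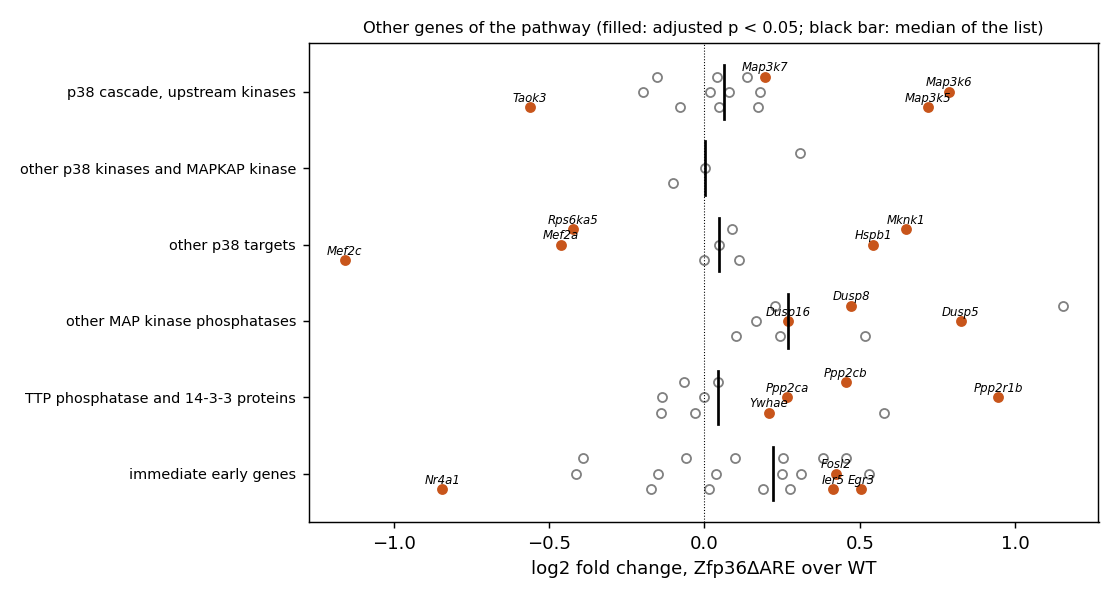
Log2 fold change (horizontal axis, *Zfp36*ΔARE over WT) of each gene in 6 lists around the p38-MK2-TTP circuit, filled and named where the adjusted p was below 0.05, with the median of each list as a black bar; the vertical offset within a list has no meaning. Medians lay between 0.0034 and 0.27, and genes that passed were found on both sides of 0 in 3 of the lists.

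How each transcript varied between mice of the same genotype was described by Pearson's correlation of log2(CPM + 1) after centring on the group mean, over 10 libraries and with no test. Centring does not remove differences in preparation or tissue makeup between libraries of a genotype. Summed hair shaft markers, for example, ran from 3044 to 115672 within WT. The part of such differences in the correlations was not tested. Among 13690 genes averaging at least 50 normalized counts, those most like *Zfp36* were *Wfikkn1* (0.98), *Otud7b* (0.97), *Palld* (0.97), *Tmem2* (0.96) and *Syde2* (0.95). Among those most like *Dusp1* were *Spx* (0.90), *Prmt9* (0.89), *Atf3* (0.88) and *Ltbp2* (0.87). The immediate early genes mostly varied with *Zfp36*: 19 of 20 had a positive correlation and 13 were above 0.7, with *Egr1* at 0.93, *Btg2* at 0.93 and *Junb* at 0.90, a median of 0.81. For all genes the median with *Zfp36* was 0.0056 and 8.59% were above 0.7. With *Dusp1* the median of the same 20 genes was 0.35 and 3 were above 0.7, *Atf3*, *Cyr61* (0.80) and *Fos* (0.78), where 0.76% of all genes were. *Fos* (0.74) and *Cyr61* (0.83) were above 0.7 with *Zfp36* as well, and the correlation between *Zfp36* and *Dusp1* was 0.57. *Zfp36* rose in the knockin. Of the 20 immediate early genes 3 were higher, *Fosl2* (correlation with *Zfp36* 0.79), *Ier5* (0.70) and *Egr3* (0.62), and *Nr4a1* (-0.28) was lower. The other 16 did not pass the test, among them *Egr1* (3378 ± 1162 and 4030 ± 938 normalized counts) and *Fos* (796 ± 341 and 720 ± 536). Of the genes most like *Zfp36*, *Wfikkn1* and *Otud7b* were higher (log2 fold changes of 0.62 and 0.29), and *Palld*, *Tmem2* and *Syde2* did not pass.

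**Figure D5:**
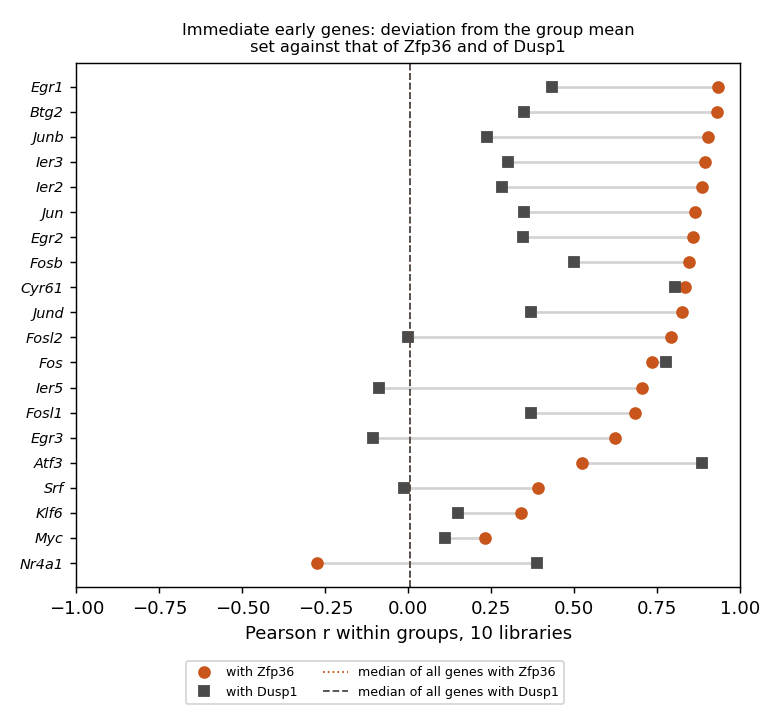
Pearson's r (horizontal axis) between each of 20 immediate early genes and *Zfp36* (orange circles) or *Dusp1* (dark squares), on log2(CPM + 1) centred within each genotype over 10 libraries, with the median over all genes as vertical lines near 0. Most circles lie to the right of 0.7 (13 of 20) and most squares to the left of it.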

How the data were processed

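RNA-Seq was performed on treated, nontumoral skin of 5 WT and 5 *Zfp36*ΔARE mice. The authors removed paired-end reads with a low mean quality score, aligned the rest to mm10 with STAR 2.5.2b, counted fragments per gene with featureCounts (Subread 1.5.0-p1) and deposited raw counts without normalization, with a summed exon length per gene. Settings for strand and multiply mapped reads are not given in the sources used here. Rows without a gene name (2, with 7.38e-05% of the counts) were left out.

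Deposited counts were scaled by TMM and filtered with filterByExpr in edgeR 4.0.16 (R 4.3.3). Genotype was the single term of a robust quasi-likelihood fit, and the 15543 p-values for knockin over WT were adjusted by Benjamini-Hochberg (threshold 0.05). The fit was also tested on simulated counts with known changes. Those counts held no differences in tissue makeup, so that run cannot show how such differences affect the calls. Ratios within pairs were compared by exact permutation tests over libraries. Motifs were counted in GENCODE M21 transcripts, and where a gene has several annotated 3′-UTRs the longest was used. Depth ran from 19595024 to 36419553 counts. The p-values set the genotype difference against the variation between libraries of different mice, which includes counting error.

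The 9 genes and all lists were chosen with earlier results of these data known. Other genes named are, per pathway list, up to 3 of the largest increases and 3 of the largest decreases that passed and the gene with the most counts, all genes of the short kinase list, and the 5 genes most correlated with *Zfp36* and with *Dusp1*, of which 1 is not reported here. *Ywhae*, *Dusp2*, *Atf3*, *Cyr61*, *Fos*, *Egr1*, *Btg2* and *Junb* were named after their values were seen. Alternatives were DESeq2 1.42.0, limma-voom (limma 3.58.1), other scalings, filters and dispersions, a replicate block, libraries left out, and other definitions of ratios and 3′-UTRs.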

Additional observations from a re-analysis of the deposited data

Results flagged for a closer look

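Within groups of 5 mice, 3 values stood apart from the other 4 by more than Dixon's limit for 5 samples (0.71 of the range). *Map2k6* reached 350 normalized counts in WT replicate 3, where the other WT mice had 214 to 251. *Dusp10* in WT replicate 5 had 473 against 361 to 383, and without this mouse the *Dusp10* call was kept. The log2 ratio of *Mapk14* to *Mapk11* in WT replicate 3 was 3.37 against 3.0 to 3.07. Chance sets apart about 1 in 20 groups, which is 1.3 of the 26 groups examined here. WT replicate 3 was also the library with the fewest hair shaft and the most muscle marker counts, and the part of either in these values was not tested.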

How the results depend on the processing

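The direction of all 9 log2 fold changes was kept under every alternative run, and 6 genes passed with upper-quartile scaling, DESeq2's size factors, limma-voom, DESeq2, non-robust dispersions, no filter and a minimum of 10 counts. Leaving out 1 library gave between 3 and 6 of the 9 genes (3 without *Zfp36*ΔARE replicate 2), a *Zfp36* log2 fold change of 1.28 to 1.41, and over all genes 3333 to 5349 calls, of which 839 to 1521 with a fold over 2, against 5335 and 1292. Without WT replicates 1 and 3 there were 2504 calls, 526 with a fold over 2, 2 of the 9 genes, 10 genes of the pathway lists against 20 (11 to 22 with 1 library left out), and a *Dusp1* to *Dusp10* difference of -0.98. In the libraries without Y-linked counts these were 0 calls, 0 with a fold over 2, 0 of the 9 and 0 of the lists, and *Zfp36* was 1.43 (adjusted p = 0.282 with edgeR). That fit holds 1 knockin library. Over all annotated 3′-UTRs, 3 of the 9 genes held TATTTAT against 2, the added one being *Map2k6*. The cause of these shifts was not tested.

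Replicate numbers are not said to pair mice. The deviations of same-numbered libraries correlated between -0.19 and 0.085, with 0 WT libraries closest to their own number. Correlations over all genes in so few libraries cannot exclude a pairing, so whether the numbers pair mice is not known. A fit with the replicate number as a block gave 2740 calls, 4 of the 9 genes and 10 of the pathway lists, *Zfp36* at 1.33 (adjusted p = 0.0256 with edgeR), and *Mapk11* (0.0802) and *Dusp10* (0.117) did not pass. Counting error alone was 3.73% to 5.38% of the count for *Mapk11* and 5.9% to 8.39% for *Map2k6*, close to the spread between mice for *Mapk11* (coefficients of variation of 5.15% and 3.27%), and at most 5.89% for the other 7.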
